A study of Mus musculus with 5 samples.

Results

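Endoderm genes were followed in mouse embryonic stem cells (ESCs) and in the ESC-like cells that grew out of teratomas. The group held 10 genes, Dab2, Sox7, Sox17, Gata4, Gata6, Foxa2, Hnf4a, Afp, Ttr and Cxcr4, out of 19938 genes with a probe set of their own symbol on the Mouse Gene 1.0 ST array of Affymetrix. They were picked by name, and each was read from its brightest probe set, the one with the highest mean over the 5 arrays; 9 of the 10 genes had 1 such probe set and Dab2 had 2. The parental ESCs, a B6CBAF1 line, were arrayed as they were before any injection (1 array). ESC-like cells came from teratomas of these ESCs injected alone under the skin of B6CBAF1 mice (homologous, 1 array), from ESCs injected alone into B6D2F1 mice (heterologous, 1 array), and from ESCs mixed with B6D2F1 embryonic fibroblasts and injected into B6D2F1 mice (co-injection, n = 2, named batch 1 and batch 2). In the paper only 1 heterologous injection of ESCs alone formed a teratoma, so the heterologous array rests on 1 teratoma. For the other groups the labels do not say how many teratomas the cells came from. All cells were kept on inactivated ICR fibroblasts with serum and leukemia inhibitory factor (LIF). The methods give a higher LIF concentration for cells freshly dissociated from teratomas, while the labels give a single concentration for all cells. No agent or altered allele separates the groups, and no source used here gives the age of the mice.

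The earliest endoderm of the mouse is the primitive endoderm, which splits from the epiblast in the blastocyst and forms the visceral endoderm, a layer that takes up maternal protein, and the parietal endoderm, which lays down basement membrane. Definitive endoderm arises later, during gastrulation, and forms the lining of the gut and the liver. GATA and SOX factors (Gata4, Gata6, Sox7, Sox17) act near the top of the extraembryonic program, Foxa2 and Hnf4a act in visceral endoderm and again in gut and liver, Afp and Ttr encode secreted proteins of visceral endoderm and fetal liver, Dab2 is an endocytic adaptor of visceral endoderm, and Cxcr4 is a receptor on cells of the definitive endoderm. ESC cultures hold a minority of cells with traces of this program.

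The values are log2 expression values after the robust multi-array average (RMA) algorithm, in which 1 unit is a 2-fold difference. A gene was counted as different when its values were more than 2-fold apart, as in the methods. The 12 ESC markers had mean values of 11.92 in parental ESCs, 11.59 in homologous cells, 11.32 in heterologous cells and 11.65 and 11.71 in the co-injection pair, all well above the table's median of 7.49. In the heterologous array 4 of the 12 (Zfp42, Klf4, Klf2 and Esrrb) were more than 2-fold below parental ESCs, in homologous cells Klf4 was, and in the mean of the co-injection pair none was. Each group but co-injection had 1 array, so differences from parental ESCs have no replicate check, and precision is limited by how few arrays there are. The only measure of spread was the gap between the 2 co-injection arrays, which had a median of 0.065 over the 10 genes and was highest for Gata6, at 0.198. This highest gap served as the yardstick for small differences below. Exact ties occurred: Sox7 and Foxa2 had the same value in both co-injection arrays, as did 5.9% of all 19938 genes, so an SD of 0 for these genes does not mean that there was no error. A limma fit over all 35556 probe sets, in which the lone arrays were assumed to vary like the co-injection pair, called 0 probe sets (0%) in each of the 6 comparisons at an adjusted p of 0.05. At an unadjusted p under 0.05 it called 15% to 26.8% of all probe sets. In RNA of whole cultures, fewer cells of a type and less RNA per cell cannot be told apart.

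**Figure D1:**
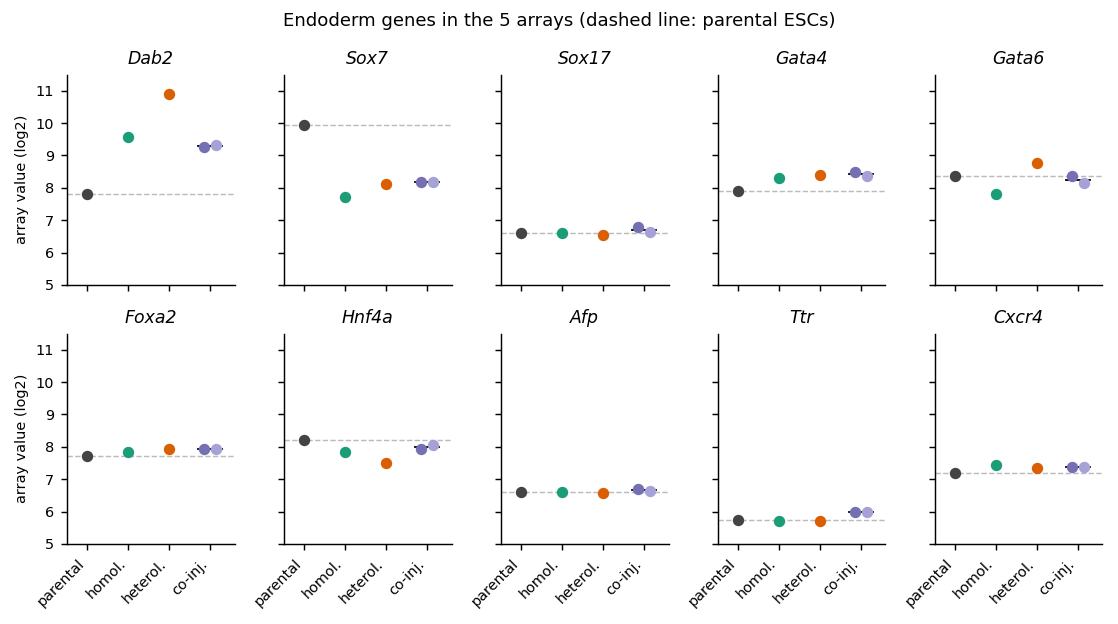
Array values (log2, vertical axis) of the 10 endoderm genes in parental ESCs and in homologous, heterologous and co-injection ESC-like cells (horizontal axis; each point is 1 array, the short bar is the mean of the 2 co-injection arrays, and the dashed line is the parental value). Dab2 runs from 7.82 in parental ESCs to 10.91 in heterologous cells, Sox7 runs from 9.95 in parental ESCs to 7.73 in homologous cells, and the other 8 genes span less than 1 unit.

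Dab2, the adaptor that links cargo receptors to clathrin-coated pits, was the only 1 of the 10 genes over 2-fold higher in all 4 ESC-like arrays. Its value was 7.82 in parental ESCs, 9.56 in homologous cells, 10.91 in heterologous cells, and 9.27 and 9.33 in the co-injection pair. The parental array lay below all 4 ESC-like arrays, and the heterologous array lay above the other 3. Against parental ESCs the log2 difference was 1.75 (3.36-fold) in homologous cells, 3.09 (8.53-fold) in heterologous cells and 1.48 ± 0.04 (SD, n = 2; 2.8-fold) in the co-injection pair. Dab2 was the only one of the 10 genes more than 2-fold higher in each comparison with parental ESCs; of all genes, 1.45% were more than 2-fold higher in homologous cells, 3.98% in heterologous cells and 0.647% in the mean of the co-injection pair. Among all 19938 genes ordered by difference, Dab2 was number 39 from the top in homologous cells, number 19 in heterologous cells and number 26 in the mean of the co-injection pair. These 3 comparisons share the parental array.

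The second probe set of Dab2 gave no such difference, with values of 4.66, 4.68, 4.56, 4.66 and 4.99 in the same order of arrays; the platform annotation ties it to a lone cDNA entry, and the brighter one to RefSeq transcripts. With the mean of both probe sets in place of the brighter one, the log2 difference of Dab2 was 0.88 in homologous cells and 0.82 in the mean of the co-injection pair, both under 2-fold, and 1.495 in heterologous cells, which still passed it. Fibroblasts also express Dab2, and fibroblast markers moved with it in part: in heterologous cells 9 of 11 fibroblast markers exceeded parental ESCs by over 2-fold, with a median difference of 2.33 (Postn 3.30 and Thbs2 3.29 highest, Lum 0.49 and Col3a1 0.57 lowest), in homologous cells only Pdgfrb did (1.31, list median 0.39), and in the mean of the co-injection pair none was more than 2-fold higher and Lox (−2.04) and Thy1 (−1.12) were more than 2-fold lower (list median −0.21). The mean log2 value of these 11 markers was 7.65 in parental ESCs, 8.11 in homologous cells, 9.79 in heterologous cells, and 7.20 and 7.21 in the co-injection pair. In the co-injection arrays Dab2 was higher, and the mean of the fibroblast markers was lower than in parental ESCs. In the co-injection mean 7 of the 11 markers lay below parental ESCs and 4 above. The part of fibroblast RNA in the value of Dab2 was not tested for any array. Macrophages are another cell type with Dab2. Of 12 macrophage markers, only Lyz2 (lysozyme) was more than 2-fold higher in a comparison with parental ESCs, at 1.16 in heterologous cells. The list had a median of 0.01 in heterologous cells, with 6 markers above parental ESCs and 6 below. C1qb (0.49) and Cd14 (0.22) were among those above, and Csf1r, the receptor of macrophage colony-stimulating factor, lay at −0.11. Cd68, a lysosomal marker, was below parental ESCs in all 4 ESC-like arrays and passed 2-fold in homologous cells, at −1.31. The part of macrophage RNA in the value of Dab2 was not tested.

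The promoters of Dab2 are shown because this gene set the largest positive difference of the group, with that of Hnf4a, the gene of the group with the next lowest difference after Sox7 in heterologous cells. The RefSeq table (GRCm38.p6) holds start sites of 5 of the 10 genes that could be shown, Dab2, Foxa2, Hnf4a, Afp and Cxcr4, and the 250 bases before a start were read 5′ to 3′ on the strand of the gene. Capitals mark 2 motifs. The first is GATAA, the core bound by GATA factors. The other is ACAAT, a core bound by SOX factors. Matches on the opposite strand count too. The motif of FOXA factors, TGTTTAC, was also searched on both strands, and no matches overlapped in the windows shown. The start sites of Dab2 lie at the 3′ ends of chr15:6299539-6299788 and chr15:6386498-6386747 on the plus strand, and the upstream start of Hnf4a at the 3′ end of chr2:163506607-163506856 on the plus strand.
Dab2 upstream start: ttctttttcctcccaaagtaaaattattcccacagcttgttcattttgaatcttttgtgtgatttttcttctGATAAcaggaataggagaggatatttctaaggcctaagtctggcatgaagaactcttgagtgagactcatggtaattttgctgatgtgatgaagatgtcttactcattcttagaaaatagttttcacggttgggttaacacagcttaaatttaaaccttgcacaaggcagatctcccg
Dab2 downstream start: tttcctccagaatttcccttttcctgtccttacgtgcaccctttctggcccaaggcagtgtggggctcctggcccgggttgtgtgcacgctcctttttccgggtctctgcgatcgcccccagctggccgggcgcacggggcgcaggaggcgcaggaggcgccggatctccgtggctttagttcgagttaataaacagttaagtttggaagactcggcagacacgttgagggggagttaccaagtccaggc
Hnf4a upstream start: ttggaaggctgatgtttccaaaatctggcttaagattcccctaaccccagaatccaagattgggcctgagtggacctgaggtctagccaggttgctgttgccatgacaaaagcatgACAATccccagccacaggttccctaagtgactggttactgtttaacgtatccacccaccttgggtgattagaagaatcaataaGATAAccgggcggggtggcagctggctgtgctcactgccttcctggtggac

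The window of the upstream Dab2 start held 1 GATAA match, which began 178 bases before the start, and that of the downstream start held none of the 3 motifs. The window of the upstream Hnf4a start held a GATAA match 51 bases and an ACAAT match 134 bases before the start, and that of the downstream Hnf4a start (chr2:163546905-163547154, not shown) held none of the 3 motifs. Over the 9 windows of the 5 genes, 4 held GATAA, 1 held ACAAT and 0 held TGTTTAC; over all 32851 windows of this length the shares were 22.6%, 27.7% and 3.17%. The matches are a description of the letters, and the array does not tell which start was used.

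Dab2 serves a pair of large receptors of visceral endoderm, cubilin and megalin, and both differed from parental ESCs, Cubn over 2-fold and not in all arrays, Lrp2 in all arrays but under 2-fold in each group. Cubn (cubilin) was at 6.51 in parental ESCs and 6.42 in homologous cells, but at 8.41 in heterologous cells and 7.64 and 7.64 in the co-injection pair. It was thus near the parental value in homologous cells and higher in the other 3, by 1.90 in heterologous cells and 1.14 ± 0.0015 (SD, n = 2) in the co-injection pair. Lrp2 (megalin) was at 8.73 in parental ESCs, 9.51 in homologous cells, 9.54 in heterologous cells, and 9.74 and 9.44 in the co-injection pair. All 4 ESC-like arrays lay above the parental one, by 0.71 to 1.01, and did not differ from each other by more than their co-injection pair, which was 0.31 apart. Amn (amnionless), the partner that carries cubilin to the cell surface, stayed between 7.43 and 7.74. Myo6, the myosin motor that binds Dab2, was higher by 1.13 in homologous cells (2-fold passed), 0.79 in heterologous cells and 0.67 ± 0.18 (SD, n = 2) in the co-injection pair. It was the only one of 16 genes of clathrin adaptors and coat proteins more than 2-fold higher in any of these comparisons, and the median of that list was −0.02, −0.01 and −0.07. Lrp2 and Amn were named after their values were seen, as were Numb, Cltc and Ap2m1 in the plot of endocytic genes.

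**Figure D2:**
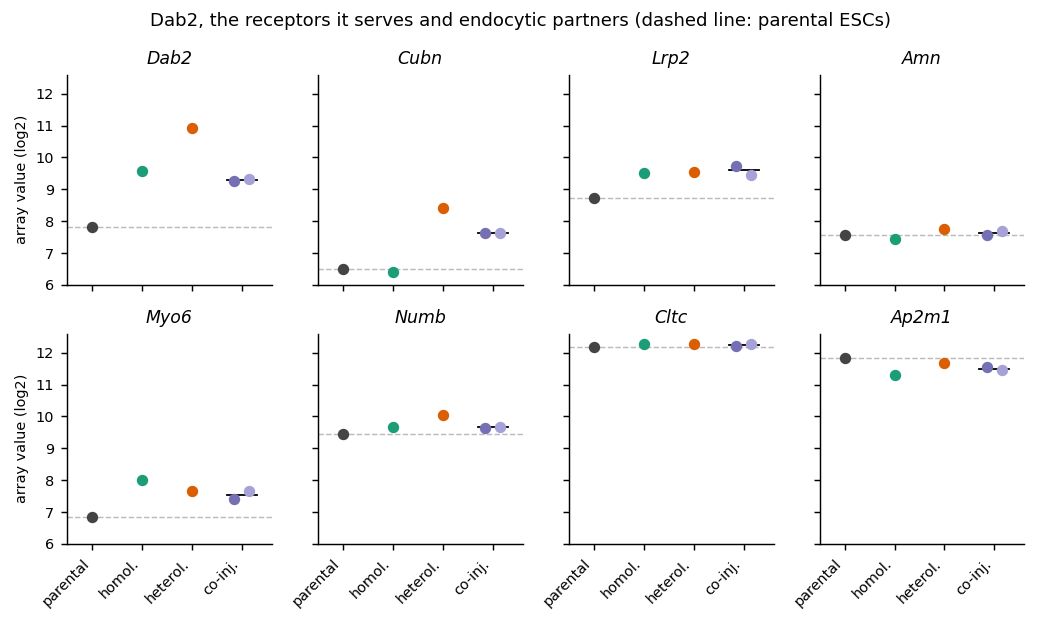
Array values (log2, vertical axis) of Dab2, of the receptors Cubn and Lrp2, of Amn, and of the endocytic genes Myo6, Numb, Cltc (clathrin heavy chain) and Ap2m1 (an AP-2 subunit) in parental ESCs and each group of ESC-like cells (horizontal axis; points are arrays, short bars the co-injection mean, dashed lines the parental value). Cubn stays at 6.42 in homologous cells and reaches 8.41 in heterologous cells, while Lrp2 lies at 9.44 to 9.74 in all ESC-like arrays.

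Sox7, a SOX factor of primitive and parietal endoderm and of blood vessels, was the only 1 of the 10 genes over 2-fold lower in all 4 ESC-like arrays. Its value was 9.95 in parental ESCs, 7.73 in homologous cells, 8.11 in heterologous cells and 8.18 in each co-injection array. The parental array lay above all others with no overlap. The log2 difference from parental ESCs was −2.23 in homologous cells, −1.85 in heterologous cells and −1.77 in the co-injection pair, or 4.68-fold, 3.6-fold and 3.42-fold lower. Of all genes, 1.6% were more than 2-fold lower in homologous cells, 1.95% in heterologous cells and 1.44% in the mean of the co-injection pair, and Sox7 was number 25, 72 and 64 from the bottom. Within the ESC-like arrays, the heterologous and co-injection values were 0.07 apart, less than the yardstick of 0.198, and the homologous value was lower than both, by 0.38 and 0.45. The differences from parental ESCs rest on the 1 parental array, whose own variation cannot be told apart from them.

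The closest relatives of Sox7 did not share its pattern. Sox17, which drives both extraembryonic and definitive endoderm, was at 6.62 in parental ESCs and the homologous array, 6.56 in heterologous cells, and 6.78 and 6.63 in the co-injection pair. The parental value lay inside the range of the others. Sox18, the remaining SOX factor of this subgroup and one of the endothelial markers, was higher by 0.33 in homologous cells and 0.54 ± 0.07 (SD, n = 2) in the co-injection pair, with −0.08 in heterologous cells. Because Sox7 is also a vessel gene, 11 endothelial markers were read beside it. None was more than 2-fold lower in homologous cells or the co-injection mean, and their medians there were 0.04 and 0.05. In parental ESCs these markers had a mean value of 7.55, near the table's median of 7.49, while Sox7 was at 9.95. For many of them a 2-fold fall would thus be hard to see. The part of endothelial RNA in the value of Sox7 was not tested. In the heterologous array Pecam1 was lower, at −1.44; this adhesion molecule of endothelium is expressed by ESCs as well. Kdr and Cdh5, which define endothelium more narrowly, lay at −0.17 and −0.29 in that array, and Emcn, another endothelial marker, lay at 0.92. The median of the list there was −0.12, with 9 of 11 markers below 0.

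**Figure D3:**
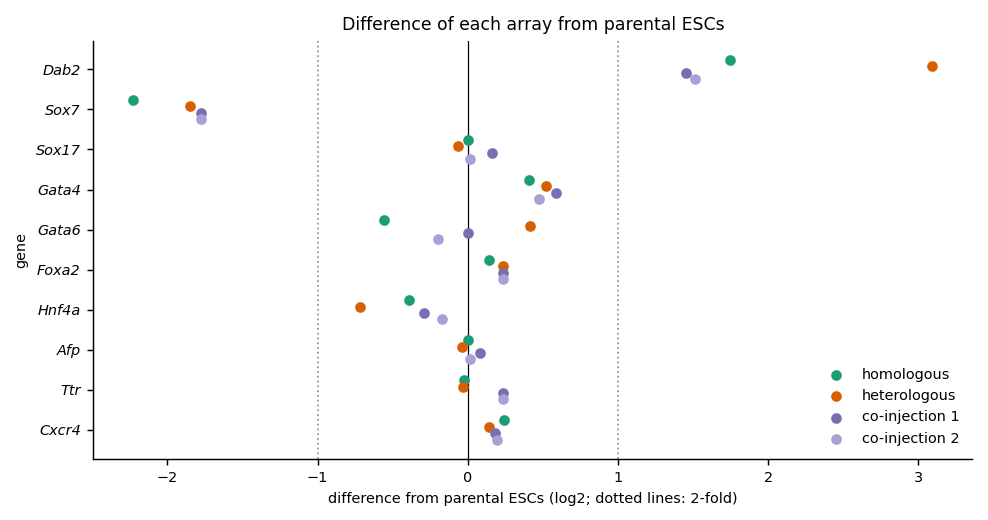
Difference of each ESC-like array from the parental array (log2, horizontal axis) for the 10 endoderm genes (vertical axis); each point is 1 array and dotted lines mark 2-fold. Dab2 lies beyond the right line and Sox7 beyond the left line in all 4 arrays, while the remaining genes stay between −0.72 and 0.59.

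The GATA factors, which in mouse ESCs can switch cells to extraembryonic endoderm when forced, stayed within 2-fold of parental ESCs. Gata4 was at 7.89 in parental ESCs, 8.30 in homologous cells, 8.41 in heterologous cells, and 8.48 and 8.37 in the co-injection pair. All 4 ESC-like arrays were above parental ESCs, by 0.41, 0.52 and 0.53 ± 0.08 (SD, n = 2), and they spanned only 0.18 among themselves. These differences exceeded the yardstick but not 2-fold. Gata6 was at 8.35 in parental ESCs, 7.80 in homologous cells, 8.77 in heterologous cells, and 8.35 and 8.16 in the co-injection pair. The parental value lay in the middle, with the homologous array lowest (−0.56) and the heterologous array highest (0.41). Other GATA genes were read as relatives: Gata3, a factor of trophectoderm, was lower in each comparison, at −1.86, −1.15 and −1.16 ± 0.011 (SD, n = 2), and it was the only one of 14 measured relatives of the endoderm genes to pass 2-fold.

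Gata4 and Sox7 are neighbours on mouse chromosome 14 in the RefSeq annotation, with 6 genes measured here between them, and of the pair only Sox7 passed 2-fold. The genes around them, apart from Ctsb, were within 2-fold of the parental values. Over the 6 genes between them (Blk, Fam167a, Mtmr9, Xkr6, Mir598 and Pinx1) and 8 on either side, the median difference was −0.01 in homologous cells, −0.07 in heterologous cells and 0.07 in the mean of the co-injection pair. Of these 22 genes, Ctsb, which encodes the lysosomal protease cathepsin B, was more than 2-fold higher in heterologous cells (1.18), and no other passed 2-fold in the 3 comparisons. Pinx1, the nearest measured gene on the Gata4 side of Sox7, lay at −0.20, −0.07 and −0.05. Most of the 22 genes, such as Defb48 (4.92) and Blk (6.82), lay below the table's median of 7.49 in parental ESCs. A fall in such genes would be hard to see. A change in copy number of the region was not tested.

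**Figure D4:**
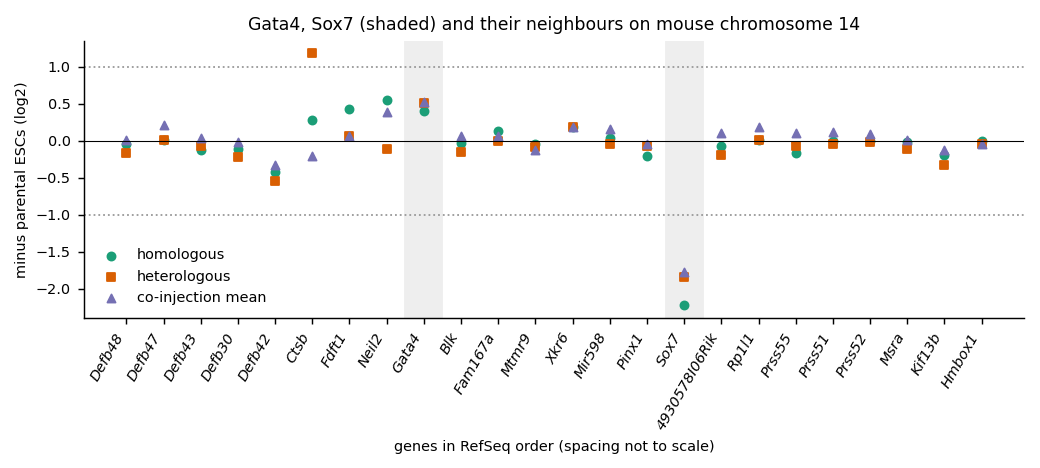
Difference from parental ESCs (log2, vertical axis) of Gata4, Sox7 (shaded) and their measured neighbours in RefSeq order on mouse chromosome 14 (horizontal axis, spacing not to scale), for the homologous, heterologous and co-injection mean values. Sox7 stands at −1.77 to −2.23 while its neighbours, apart from Ctsb at 1.18 in the heterologous array, stay within 2-fold.

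Foxa2 and Hnf4a, factors of visceral endoderm, gut and liver, stayed within 2-fold of parental ESCs. Foxa2 was at 7.71 in parental ESCs, 7.85 in homologous cells and 7.94 in the heterologous and both co-injection arrays. Its differences of 0.14 to 0.23 were about the size of the yardstick. Hnf4a was at 8.21 in parental ESCs, 7.83 in homologous cells, 7.50 in heterologous cells, and 7.93 and 8.04 in the co-injection pair. All 4 ESC-like arrays lay below parental ESCs, at −0.39 in homologous cells, −0.72 in heterologous cells (1.65-fold lower) and −0.23 ± 0.08 (SD, n = 2) in the co-injection pair. The heterologous array was the lowest, and batch 2 of the co-injection lay within the yardstick of the parental value. Foxa1, the relative of Foxa2 in gut, lay at −0.07, 0.88 and 0.03.

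The secreted products of endoderm stayed within 2-fold of parental ESCs. Afp (alpha-fetoprotein) was at 6.62 in parental ESCs and the homologous array, 6.58 in heterologous cells, and 6.70 and 6.63 in the co-injection pair. Its 5 values spanned 0.123, less than the yardstick. Ttr (transthyretin, a carrier of thyroid hormone) was at 5.74 in parental ESCs, 5.72 in homologous cells, 5.71 in heterologous cells, and 5.97 and 5.98 in the co-injection pair. Both co-injection arrays were above the other 3, by a mean of 0.23 over parental ESCs. Afp, Ttr, Sox17 and Cxcr4 had mean values below the median of the whole table, 7.49. The other 6 genes were above it. Zhx2, which in mouse liver represses Afp after birth, stood above parental ESCs by 0.62 in homologous cells, 1.00 in heterologous cells and 0.43 ± 0.21 (SD, n = 2) in the co-injection pair. It is named here after its values were seen and did not pass 2-fold.

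Cxcr4, the chemokine receptor used to sort definitive endoderm, was at 7.19 in parental ESCs, 7.43 in homologous cells, 7.34 in heterologous cells, and 7.37 and 7.39 in the co-injection pair. The ESC-like arrays were all above parental ESCs, but by 0.14 to 0.24 only. Cxcl12, the ligand of Cxcr4 and a product of stromal cells, was higher by 0.69 in homologous cells and 1.10 in heterologous cells. In the co-injection pair it was higher by 0.23 ± 0.07 (SD, n = 2). It passed 2-fold in heterologous cells, where the fibroblast markers stood highest. The part of fibroblast RNA in the value of Cxcl12 was not tested.

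Further lists of endoderm genes were read in the same way. Of 13 genes of parietal endoderm and its basement membrane, 5 passed 2-fold upward and 1 downward in heterologous cells, with a median of 0.69 against −0.04 over all genes. Fst (follistatin), Plat (tissue plasminogen activator) and Thbd (thrombomodulin) led, at 2.01, 1.93 and 1.86, and the co-injection arrays lay at 0.02, 0.15 and −0.05 for the same genes. Fibroblasts express several genes of this list, and the fibroblast markers were highest in the heterologous array. The part of fibroblast RNA in these values was not tested. The laminin genes differed among themselves. Lama1, the alpha chain of embryonic basement membrane, was lower in all 4 ESC-like arrays. It lay at −1.15 in homologous cells, −1.03 in heterologous cells and −0.63 in the co-injection mean. Lamc1 was also lower in all 4, at −0.68, −0.54 and −0.36 in the same order. Lamb1 was higher in all 4, at 0.63, 1.24 and 0.48, and passed 2-fold in heterologous cells. Nid1 (nidogen, a basement membrane linker) was lower in homologous cells (−1.12) and in the co-injection pair (−1.67 ± 0.03, SD, n = 2), and no gene of the list was more than 2-fold higher in either.

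Of 15 genes of visceral endoderm, only Cubn passed 2-fold, in heterologous cells and the co-injection mean, and the median of the list was −0.06 for homologous cells, −0.06 for heterologous cells and 0.08 for the co-injection pair. Of 16 genes of definitive endoderm and foregut, Trh was more than 2-fold higher in all 3. This gene of thyrotropin-releasing hormone was at 10.92 in parental ESCs, 12.54 in homologous cells, 12.22 in heterologous cells, and 11.91 and 12.04 in the co-injection pair. The parental value was the lowest of the 5, by 1.62, 1.30 and 1.06 ± 0.09 (SD, n = 2), with batch 1 of the co-injection just under 2-fold, at 0.999. Otx2, a factor of anterior visceral endoderm and of the epiblast, was lower in heterologous cells only, at −1.51. Cer1, Gsc, Hhex and Mixl1, genes of anterior and early definitive endoderm, lay between −0.36 and 0.20 in the 3 comparisons. Eomes, of the same list, was below parental ESCs in all 4 ESC-like arrays without passing 2-fold. It lay at −0.54 in homologous cells, −0.57 in heterologous cells and −0.57 ± 0.04 (SD, n = 2) in the co-injection pair. Among regulators, Fgf4, the growth factor of the epiblast that supports primitive endoderm, was lower in all 4 ESC-like arrays. It lay at −0.77 in homologous cells, −1.11 in heterologous cells and −0.82 in the co-injection mean. Its receptor gene Fgfr2 was higher in all 4, by 1.20 in homologous cells, 0.68 in heterologous cells and 0.91 in the co-injection mean. Fgfr1 was also higher in all 4, by 0.68, 0.64 and 0.45 in the same order. Nr5a2, a nuclear receptor of ESCs and liver, was lower, at −1.24 and −1.25 in the homologous and heterologous arrays and lay at −0.30 in the mean of the co-injection pair.

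**Figure D5:**
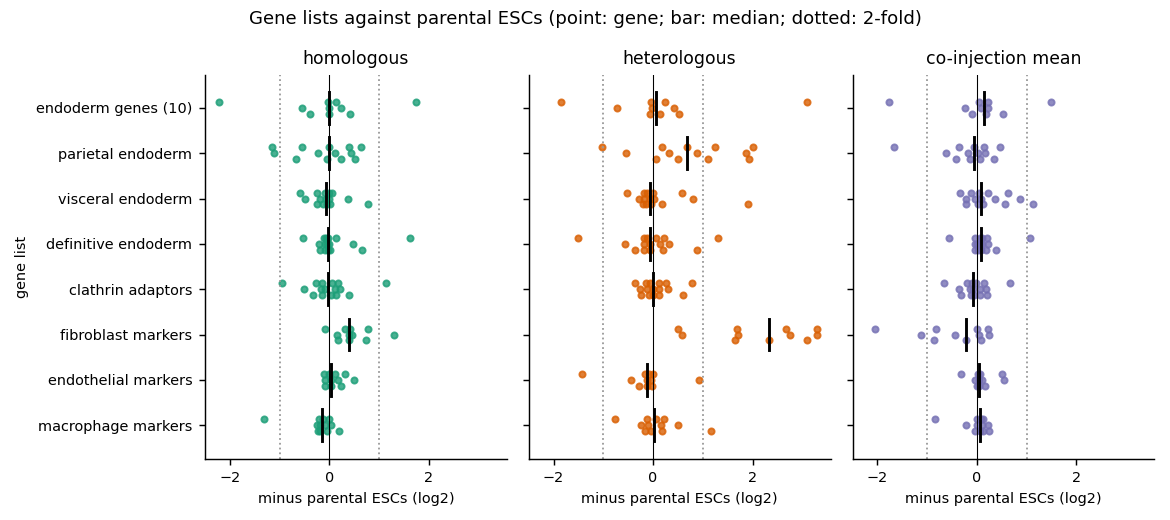
Differences from parental ESCs (log2, horizontal axis) of the 10 endoderm genes, 3 further endoderm lists, clathrin adaptors and fibroblast, endothelial and macrophage markers (vertical axis) in the homologous, heterologous and co-injection mean values; points are genes, bars medians, dotted lines 2-fold. The list of the 10 endoderm genes has medians of 0.00, 0.06 and 0.14, while the fibroblast markers reach a median of 2.33 in the heterologous panel.

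Over the 10 endoderm genes together, 1 lay over 2-fold above and 1 over 2-fold below parental ESCs in each of the 3 groups, Dab2 and Sox7. Their median difference was 0.00 in homologous cells, 0.06 in heterologous cells and 0.14 in the mean of the co-injection pair, beside −0.01, −0.04 and 0.04 over all genes. The ESC-like cells were also set against each other. In the heterologous against the homologous array, Dab2 was 2.54-fold higher, where 2.41% of all genes were more than 2-fold higher, and Gata6 followed with a log2 difference of 0.97. In the co-injection mean against the heterologous array, Dab2 was lower, at −1.61 (3.05-fold), where 2.99% of all genes were more than 2-fold lower, and Gata6 (−0.51) and Hnf4a (0.49) lay on either side. In the co-injection mean against the homologous array none of the 10 genes passed 2-fold, and 0.426% of all genes did; Gata6 and Sox7 were highest, at 0.46 and 0.45, and Dab2 was lowest, at −0.26. In limma the lowest adjusted p of the 10 genes was 0.109 (Dab2 and Sox7 in the heterologous against the parental array). Unadjusted p-values of the limma fit are not read gene by gene here. The fit drew on the co-injection pair for its spread, and that gap was 0 for Foxa2 and 0.0008 for Ttr. Their differences of 0.23 in the co-injection mean against parental ESCs thus had a standard error of only 0.026. Such calls follow ties and near ties as well as the size of a difference.

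Only Dab2 and Sox7 spanned more than 1 unit over the 5 arrays, and for these the genes with the most similar values were sought. The search covered only genes whose mean over the 5 arrays lay above the table's median of 7.49. It used the root mean square difference after each gene was centred on its own mean over the 5 arrays. The closest to Dab2 were Has2 (0.12), which makes hyaluronan, the growth factor gene Igf2 (0.14) and the gelatinase gene Mmp2 (0.20). Has2 was at 7.25 in parental ESCs, 9.09 in homologous cells, 10.57 in heterologous cells, and 8.79 and 8.64 in the co-injection pair, in the same order as Dab2 but for the 2 co-injection arrays. For Sox7 they were Ceacam1 (0.08), a cell adhesion gene, Aard (0.09) and Phka1 (0.11), a subunit of phosphorylase kinase on the X chromosome. Ceacam1 was at 9.90 in parental ESCs, 7.67 in homologous cells, 8.20 in heterologous cells, and 8.18 and 8.30 in the co-injection pair.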

How the data were processed

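RNA of 5 cell populations was measured on Mouse Gene 1.0 ST arrays of Affymetrix. Log2 values for 35556 probe sets were deposited, which the authors had made from GCOS intensities through RMA, including a quantile step (versions and genome build: not given in the sources used here). Groups were taken from the sample titles. The platform annotation gave a lone symbol to 21789 probe sets, more than one to 1621 and no symbol to 12146. Genes were read from the brightest probe set with 1 symbol, 19938 in all; 11 listed genes or older symbols had none and were not analysed here. The members and gene lists were chosen with earlier results of these data known. Each comparison subtracts the log2 value of one group from that of another, with the 2 co-injection arrays averaged; over 1 (2-fold) was counted, and no test was made for these main values. As an alternative, limma 3.58.1 (R 4.3.3; 1 residual and 0.818 prior degrees of freedom, Benjamini-Hochberg over all probe sets) was fitted to all 5 arrays. The paper names the co-injection arrays as separate ESC-like cell lines, batch 1 and batch 2. It does not say whether these lines came from separate teratomas, so the limma p-values may not measure the spread between teratomas. Both rules were run on simulated arrays that all had the spread of the co-injection pair. The unknown variation of the lone arrays was not simulated, so this run does not check it. Other alternatives were thresholds of 1.5-fold and 3-fold, the mean of all probe sets, cyclic loess, centring on housekeeping genes, leaving out dim genes, and leaving out each co-injection array. Genes outside the 10 were named where a list had at most 4 genes past 2-fold, otherwise by its 2 highest and 2 lowest; Lamb1, Thbd and the genes given within 2-fold were named beyond this rule, after their values were seen. Python 3.11.15 with numpy 2.4.6 and pandas 2.3.3 was used. Scanner files were not analysed here, so background correction was not varied. Motifs were searched in the RefSeq table of promoter windows, from which genes on chromosome 18 were not shown.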

Additional observations from a re-analysis of the deposited data

Results flagged for a closer look

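Gata6 was singled out because the homologous array lay below parental ESCs, with a log2 difference of −0.56, while the heterologous array lay above them, with 0.41, both beyond 0.198, the highest gap between the co-injection arrays for any of the 10 genes. Each side is 1 array, and the fold rule has no test; the limma fit gave the difference between these arrays an adjusted p of 0.212. No group had the 4 arrays needed to look for an array that stands apart.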

How the results depend on the processing

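Of the 6 comparisons, the count of endoderm genes past 2-fold was unchanged or within 1.5 times under housekeeping centring and with dim genes left out; the 7 housekeeping genes had median differences of 0.02, 0.03 and −0.02 from parental ESCs. A 1.5-fold threshold gave 2 genes instead of 1 in the heterologous against the homologous array. It also gave 3 instead of 2 in the heterologous array against parental ESCs (Hnf4a added). A 3-fold threshold gave 0 in the heterologous against the homologous array. It gave 1 instead of 2 in the mean of the co-injection pair against parental ESCs. With the mean of all probe sets, the counts became 1 in the homologous and 1 in the co-injection comparison with parental ESCs and 0 in the heterologous against the homologous array and the co-injection mean against the heterologous array, each through Dab2, whose second probe set is flat; the log2 differences of Dab2 between ESC-like groups were then 0.61 and −0.67. Cyclic loess gave 2 instead of 1 in the heterologous against the homologous array, since Gata6 moved from 0.97 to 1.01. In limma the count was 0 in all 6 comparisons at an adjusted p of 0.05. Without either co-injection array the counts kept their values, from 2 to 2 against parental ESCs, 1 to 1 against the heterologous array and 0 to 0 against the homologous array, and no difference moved by over 0.099. No called difference changed sign in any of these alternatives. No paired analysis was possible because only the co-injection arrays carry replicate numbers and the groups share fewer than 2. Signal over background is not given in the values used here, so a gene near the low end cannot be told from one that is not expressed.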

Other observations

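Of 11 trophectoderm markers, Krt18 and Krt8, the paired keratins of simple epithelia, which visceral and parietal endoderm also express, passed 2-fold over parental ESCs in the co-injection pair, at 2.09 and 1.90. Both were also above parental ESCs in homologous cells (0.51 and 0.23) and in heterologous cells (0.86 and 0.49), without passing 2-fold. In the co-injection pair Gata3 of the same list was lower, at −1.16. In the heterologous array Tead4, a transcription factor of early trophectoderm, was lower, at −1.10. None of 9 cardiac mesoderm markers passed 2-fold in the 3 comparisons with parental ESCs. These are differences of 1 array, or of the mean of 2, with no test.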
